A study of Mus musculus with 18 samples.

Results

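The genes described here are the D-type cyclins Ccnd1, Ccnd2 and Ccnd3, the E-type cyclins Ccne1 and Ccne2, the kinases Cdk4 and Cdk6, and the CDK inhibitors Cdkn1a, Cdkn1b and Cdkn1c, which encode p21, p27 and p57. These 10 genes were taken by name from the 31201 gene names of the count tables, and all 10 were present in both datasets. The data came from Quartz-Seq2, a plate-based single-cell RNA-seq method that counts unique molecular identifiers (UMIs), applied to gastric units of wild-type C57BL/6J male mice aged 10 weeks. Dataset 1 held 491 cells of corpus and antrum units on 6 plates, sorted as ToPro3(-) by the labels although the methods name PI as the dye for dead cells, and dataset 2 held 3993 cells of corpus units sorted as Hoechst33342(+),ToPro3(-) on 12 plates. In each dataset, 2 pools of 3 mice prepared by 2 operators were the biological replicates, named tube1 and tube2 in dataset 1 and K and T in dataset 2. The glands had been dissociated with enzymes, and no mouse carried an altered allele or received a treatment. Pool and operator cannot be told apart.

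Entry into the cell cycle is controlled at the G1/S transition. D-type cyclins bind Cdk4 or Cdk6 and begin the phosphorylation of the retinoblastoma protein, which releases E2F factors, and E2F factors in turn raise the transcription of E-type cyclins, the partners of Cdk2. The Cip/Kip inhibitors p21, p27 and p57 bind cyclin-kinase complexes and restrain them in differentiated or stressed cells. In the gastric corpus, dividing progenitor cells sit in the isthmus, and pit, neck, parietal, chief and endocrine cells are the differentiated epithelium around them.

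For each type, cluster or called phase, the UMIs of its cells were added up within each pool, so that 2 pools stand behind every mean and test. Levels are CPM (UMI counts-per-million) after TMM scaling within a set of sums, and differences are log2 fold changes with their standard error (SE). Called genes are those with an adjusted p under 0.05 in edgeR's quasi-likelihood test across all genes. The authors had drawn clusters and phases from these same UMIs, and each p-value between them also reflects that assignment. The plates held between 3054370 and 5346035 UMIs in dataset 1 and between 10540256 and 12850942 in dataset 2, with a median of 38757 and 31020 UMIs per cell. In dataset 2, all 5 isthmus markers, all 5 mature pit markers and all 3 parietal markers were highest in the clusters of that name, as were 3 of 4 chief markers and 1 of 3 neck markers, whereas all 4 pre-pit markers were higher in mature pit cells. In such sums, fewer cells with a transcript and fewer transcripts per cell cannot be told apart, so shares of cells with a UMI are given for the genes that differ most. Each of the 10 genes overlaps at least 1 other annotated gene, on the opposite strand in all 10 and also on the same strand for Ccnd3 and Cdkn1c, and the strand setting of the counting is not given in the sources used here.

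Among 1285 isthmus cells of dataset 2, 172 were called G1, 489 S and 624 G2M, and the members differed between these phases. E-type cyclins and, to a smaller extent, Ccnd1, Ccnd3 and Cdk4 were higher in S than in G1, Ccnd1 and Ccnd2 were lower in G2M, and Cdkn1b was higher in G2M than in either other phase. Ccne2 belongs to the gene list with which Seurat calls S phase, so its differences between phases are description only and are left out of the counts. Of the 9 other members, 4 were called higher in S than in G1 and 0 lower, where 25% of the 13459 genes tested were called, 14.0% of them higher. In G2M against G1, 2 were called higher and 2 lower, where 24.6% of all genes were called, 13.5% higher and 11.1% lower. In S against G2M, 6 were called higher and 1 lower, where 22.3% were called, 11.8% higher and 10.5% lower. The cells that shared a phase came from all 12 plates.

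Ccnd1 (chr7:144483668-144493662 on the minus strand, GRCm39), the D-type cyclin most tied to growth factor signals, measured 198 CPM in S cells of pool K and 205 in pool T, 115 and 113 in G1, and 88.3 and 87.1 in G2M. The 3 phases did not overlap. Ccnd1 was higher in S than in G1 by 0.78 on the log2 scale (SE 0.12, adjusted p = 0.000131) and lower in G2M than in G1 by a difference of -0.44 (SE 0.12, adjusted p = 0.0123). Ccnd2 (chr6:127102125-127129156, minus strand) measured 289 and 264 CPM in S, 233 and 176 in G1, and 122 and 115 in G2M. Its G2M level was lower than that of G1 by a log2 difference of -0.83 (SE 0.15, adjusted p = 0.000700), whereas the S to G1 difference of 0.41 (SE 0.15, 95% interval 0.07 to 0.74) was not called (adjusted p = 0.0552) unless pool was added as a block (adjusted p = 0.0213). Ccnd3 (chr17:47815767-47910624, plus strand) measured 100.7 and 112 CPM in S against 70.2 and 74.3 in G1 and 70.8 and 74.8 in G2M. The S to G1 difference of Ccnd3 was 0.51 (SE 0.16, adjusted p = 0.0276), and it was no longer called without plate 3 of pool K (adjusted p = 0.0536) or without plate 4 of pool T (adjusted p = 0.0648). All 3 D-type cyclins were highest in S by their means, and Ccnd3 was the one with no difference called between G1 and G2M (-0.05, SE 0.16, 95% interval -0.42 to 0.32).

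**Figure D1:**
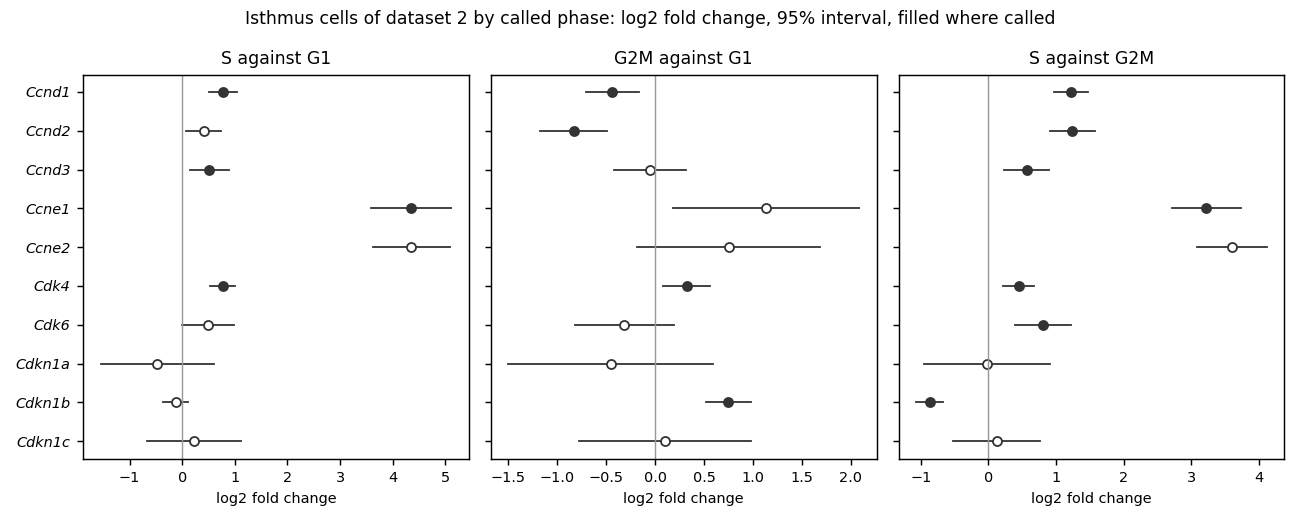
Log2 fold change of each member (x axis) between called phases of isthmus cells in dataset 2, with its 95% interval and a filled point where called, Ccne2 being drawn unfilled in every panel because it helped to call the phases. Ccne1 at 4.36 and Ccne2 at 4.35 lie furthest from 0 in S against G1, and Cdk4 and Cdkn1b are the members called higher in G2M against G1.

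Ccne1 (chr7:37797404-37808264, minus strand), an activator of Cdk2 that peaks at the G1/S boundary, measured 52.6 and 66.4 CPM in S cells of pools K and T, 2.24 and 3.19 in G1, and 6.52 and 6.40 in G2M. It was 20.5-fold higher in S than in G1 (log2 4.36, SE 0.33, adjusted p = 9.12e-08) and 9.34-fold higher in S than in G2M (log2 3.22, SE 0.22, adjusted p = 4.84e-08). A UMI of Ccne1 was found in 73.4% of S cells, 9.88% of G1 cells and 18.3% of G2M cells, and after every cell was thinned to 20000 UMIs, leaving out 24, 11 and 28 shallower cells, the shares were 60.7%, 6.38% and 10.1%. The difference between G2M and G1 was 1.13 (SE 0.41, adjusted p = 0.0567), with an adjusted p of 0.0287 when pool was a block and of 0.0485 in DESeq2. Ccne2 (chr4:11190303-11204947, plus strand), the second E-type cyclin, measured 83.8 and 82.7 CPM in S, 3.74 and 4.1 in G1, and 7.23 and 6.67 in G2M, with a UMI in 84.0%, 12.2% and 20.2% of cells. Both E-type cyclins thus had their highest level in S in each pool, with none of the other phases above 8 CPM.

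Cdk4 (chr10:126895180-126903789, plus strand), the main kinase partner of D-type cyclins, measured 413 and 399 CPM in S, 286 and 318 in G2M, and 238 and 227 in G1. The phases were ordered S, G2M, G1 in both pools. Cdk4 was higher in S than in G1 by 0.77 (SE 0.11, adjusted p = 6.52e-05) and in G2M than in G1 by 0.32 (SE 0.11, adjusted p = 0.0360), the second of which was lost without plate 1 of pool K (adjusted p = 0.0566) or plate 2 of pool T (adjusted p = 0.0640). Cdk6 (chr5:3391485-3581008, plus strand), the alternative partner, measured 41.1 and 36.5 CPM in S, 31.4 and 23.7 in G1, and 24.9 and 20.3 in G2M. Cdk6 differed between S and G2M by 0.80 (SE 0.18, adjusted p = 0.00443) but was not called between S and G1 (0.49, SE 0.21, 95% interval -0.01 to 0.98). The RefSeq promoter windows of mouse build GRCm38.p6 (250 bases before to 50 after each gene start) were searched for all members that had one. These include members that did not rise in S. Windows were found for 6 members, with 2 each for Ccnd3 and Cdkn1a, and not for Ccnd1, Ccnd2, Ccne2 and Cdkn1c. The 8-letter E2F consensus in its spellings TTTCCCGC, TTTCGCGC, TTTGCCGC and TTTGGCGC, on both strands, matched 0 of these 6 members and 2.26% of all 32851 windows. The E-box CACGTG, a palindrome chosen after the sequences were seen, occurred 4 times in the window of Cdk4, at 172, 118, 98 and 11 bases before the start, and 1 time in that of Cdk6, at 220 bases before it. At least 1 E-box was in 7.15% of all windows and at least 4 were in 8 windows, 0.0244% of them. The windows of Cdk4, with its repeated match, of Cdk6, its closest relative here, and of Ccne1, the member that rose most in S, are printed 5′ to 3′ with E-boxes in capitals. They lie at chr10:127063285-127063584 (plus), chr5:3343643-3343942 (plus) and chr7:38107441-38107740 (minus). A match describes letters and is not evidence of binding.
Cdk4: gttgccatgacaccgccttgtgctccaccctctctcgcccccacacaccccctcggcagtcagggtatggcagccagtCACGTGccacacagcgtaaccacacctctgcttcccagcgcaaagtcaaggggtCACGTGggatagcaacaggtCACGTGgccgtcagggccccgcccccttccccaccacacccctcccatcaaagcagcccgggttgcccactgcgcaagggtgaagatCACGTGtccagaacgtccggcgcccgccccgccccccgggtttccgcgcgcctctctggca
Cdk6: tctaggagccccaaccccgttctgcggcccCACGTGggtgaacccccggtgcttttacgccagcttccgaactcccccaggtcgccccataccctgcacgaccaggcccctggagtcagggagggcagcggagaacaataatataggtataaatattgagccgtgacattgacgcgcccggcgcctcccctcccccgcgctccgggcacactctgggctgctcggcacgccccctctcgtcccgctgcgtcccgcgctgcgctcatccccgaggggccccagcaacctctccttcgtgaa
Ccne1: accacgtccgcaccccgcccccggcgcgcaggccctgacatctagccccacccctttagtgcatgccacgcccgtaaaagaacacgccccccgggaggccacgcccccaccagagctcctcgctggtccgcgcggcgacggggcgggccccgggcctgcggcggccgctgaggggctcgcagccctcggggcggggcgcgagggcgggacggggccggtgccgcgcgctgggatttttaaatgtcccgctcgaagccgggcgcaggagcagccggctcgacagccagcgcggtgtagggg

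Of the 3 inhibitors, Cdkn1b was the one called between phases. Cdkn1b (chr6:134897364-134902476, plus strand), whose protein p27 is removed as cells enter S, measured 83.3 and 89.97 CPM in G2M, 52.3 and 47.7 in G1, and 46.0 and 47.7 in S. Both G2M values lay above all 4 others, with a log2 difference of 0.75 from G1 (SE 0.10, adjusted p = 4.09e-05), and S was lower than G2M by -0.87 (SE 0.09, adjusted p = 3.30e-06). Cdkn1a (chr17:29309936-29319701, plus strand), a p53 target, measured 21.4 and 37.3 CPM in S, 21.0 and 38.9 in G2M, and 32.5 and 45.4 in G1, with pool T above pool K in each phase and no call (S against G1 -0.47, SE 0.47, 95% interval -1.55 to 0.60). Cdkn1c (chr7:143012069-143014806, minus strand), encoding p57, stayed between 9.34 and 11.9 CPM in all 6 sums. Genes of the dissociation response (Fos, Jun, Atf3 and others) moved with phase too: of 12, 8 were called lower in S and 5 in G2M than in G1, and their summed level was 12530 to 14488 CPM without TMM scaling in G1, 4317 to 8223 in S and 4516 to 8576 in G2M. Their part in the differences of the members was not tested.

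The isthmus clusters put the phases into finer order. Cluster 3 held S cells alone and cluster 5 G2M cells alone, cluster 6 held 47.4% S and 52.6% G2M cells, cluster 9 was 89.9% G2M and cluster 11 85.5% G1. Within S, cells of cluster 6 had 119 and 132 CPM of Ccne1 in pools K and T against 43.8 and 57.4 in cluster 3, whereas Ccnd2 was 237 and 200.2 in cluster 6 against 383 and 376 in cluster 3. Ccnd1 followed Ccnd2, with 195 and 222 CPM in cluster 6 against 253 and 265 in cluster 3. Ccnd3 went the other way, with 152 and 166 CPM in cluster 6 against 109 and 120.03 in cluster 3. The 19 S cells of cluster 11 were low in both kinds of cyclin relative to cluster 3, with 23.6 and 2.26 CPM of Ccne1 and 179 and 178 of Ccnd1. These values are a description without a test, since the clusters were drawn from these genes among others. The 2 mainly G2M clusters differed in 2 of 10 members, Cdkn1b and Ccne2, of which Ccne2 is description only, as given below. Of 15195 genes 7.76% were called, 1.65% higher and 6.11% lower in cluster 9. Cdkn1b was 67.2 and 72.5 CPM in cluster 9 against 114 and 120.4 in cluster 5 (log2 -0.75, SE 0.10, adjusted p = 2.77e-06), and Ccne2 was 6.63 and 6.85 against 2.08 and 2.48 (log2 1.54, SE 0.44, adjusted p = 0.0220). The call of Ccne2 was lost without plate 4 of pool T (adjusted p = 0.0569). Ccne2 also helped to call the phases, and cluster 9 held 19 G1 and 3 S cells where cluster 5 held none. Its difference between these clusters is therefore not independent of the phase calls and is description only. Ccnd2, at 165 and 168 CPM against 125 and 121, was called only with pool as a block (0.44, adjusted p = 0.0751 without and 0.0213 with it). Of the other G1/S genes, 0 were called higher and 10 lower in cluster 9, led by E2f7 (-3.28, SE 0.68), Cdkn2c (-2.77, SE 0.12) and Cdkn2d (-2.22, SE 0.17), and 6 of 7 proliferation markers were lower too. Both clusters were drawn from such genes among others, so these numbers are description only.

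Beyond the members, 24 of a list of 25 other genes of the G1/S pathway were tested, 2 of which, E2f8 and Cks1b, also serve Seurat's phase calls. Between S and G1, 14 were called higher and 1 lower, and their median difference was 0.93 against -0.02 over all genes. E2f7, a repressor E2F, had 0 UMIs in G1 cells and was at least 35.3-fold higher in S, taking 3 UMIs over the group as the floor, while E2f8 (5.52, SE 0.34) and E2f1 (5.37, SE 0.33) rose most among the rest and Cdkn2b, encoding p15, was the gene that fell (-1.52, SE 0.38, adjusted p = 0.00752). In G2M against G1, 12 were higher and 0 lower, with E2f7 at least 18.3-fold, Ccna2 by 5.60 (SE 0.23) and E2f8 by 4.81 (SE 0.36). In S against G2M, 11 were higher and 6 lower: E2f1 (3.04, SE 0.19), E2f3 (1.74, SE 0.13) and E2f2 (1.35, SE 0.21) led the rise, and Ccna2 (-2.10, SE 0.15), Cdkn2d (-1.75, SE 0.16) and Cdkn2b (-1.14, SE 0.28) the fall. These counts include E2f8 and Cks1b, whose differences between phases are description only, as for Ccne2. Of all genes, 14.0% were higher and 11.1% lower in S than in G1, and 13.5% and 11.1% in G2M than in G1. For S against G2M the shares were 11.8% and 10.5%. The activator E2Fs and Ccne1 were highest in the same phase, S, as was Ccne2, which helped to call it.

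**Figure D2:**
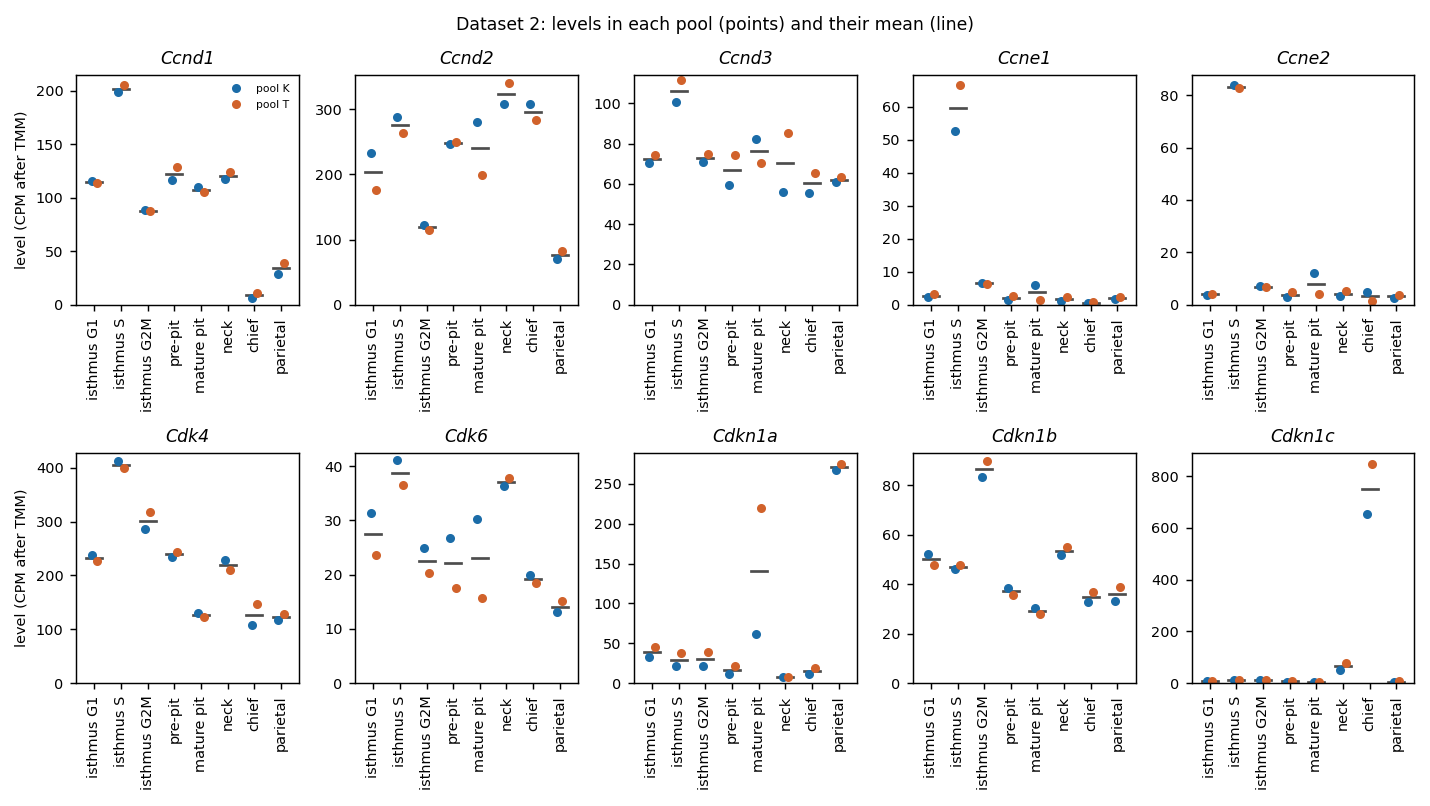
Level of each member (y axis, CPM after TMM scaling) in isthmus cells by called phase and in the differentiated types of dataset 2, each point being a pool and each line the mean of 2 pools. The chief values of Cdkn1c at 655 and 848 and the parietal values of Cdkn1a at 268 and 276 lie above all other types.

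Each differentiated type was next compared with the mean of the 3 isthmus phases, each phase weighted equally. The number of members called, and the share of all 13459 genes called, rose from 5 and 28.4% in pre-pit cells through 6 and 40.2% in mature pit, 6 and 52.7% in neck and 7 and 57.0% in chief to 10 and 74.1% in parietal cells. By direction, 1 member was higher and 4 lower in pre-pit (12.2% and 16.2% of genes), 2 and 4 in mature pit (18.6% and 21.6%), 2 and 4 in neck (25.4% and 27.3%), 2 and 5 in chief (26.1% and 31%) and 1 and 9 in parietal cells (35.3% and 38.8%). Ccne2, which helped to call the phases, is among the 10 members of these counts. The isthmus mean contains S cells, and against isthmus G1 cells alone 1 of 10 members was called in pre-pit, 3 in neck, 4 in mature pit, 5 in chief and 7 in parietal cells, where 10.6%, 29.6%, 27.1%, 47.8% and 62.1% of all genes were called. The members are therefore given by role, with the G1 comparison wherever it changed a call.

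Ccnd1 was lowest in chief cells and Ccnd2 in parietal cells. Ccnd1 stayed near its isthmus G1 level in pit and neck cells, with 116 and 129 CPM in pre-pit, 109.6 and 105 in mature pit and 117 and 124 in neck cells. Against the mean of the 3 isthmus phases none of these 3 was called (log2 -0.03, -0.19 and -0.10, SE 0.09, 0.11 and 0.09). Ccnd1 was 28.9 and 38.8 CPM in parietal cells (-1.96, SE 0.10, adjusted p = 6.64e-11) and 6.09 and 11.2 in chief cells (-3.72, SE 0.18, adjusted p = 8.89e-11), where 17.2% of 180 cells had a UMI against 80.8% of 1247 neck cells. Thinned to 20000 UMIs per cell, with 2 chief and 369 neck cells left out as shallower, these shares were 10.9% and 82.2%. Ccnd2 took another course, with 308 and 339.9 CPM in neck, 309 and 283 in chief, 246 and 249 in pre-pit and 281 and 199 in mature pit cells, all above the isthmus mean (0.75, 0.74, 0.41 and 0.39, each called), and 69.7 and 82.7 in parietal cells (-1.36, SE 0.13, adjusted p = 8.53e-08). Chief cells thus held Ccnd2 at the level of neck cells (-0.01, SE 0.15, 95% interval -0.35 to 0.33) with little Ccnd1. Against isthmus G1 alone the Ccnd2 difference was 0.25 in mature pit (adjusted p = 0.251) and 0.27 in pre-pit cells (adjusted p = 0.276), and the mature pit call was lost without plate 1 of pool T (adjusted p = 0.0629). Ccnd3 varied least, from 55.3 to 85.1 CPM over the 10 differentiated sums, and was called in parietal cells alone (-0.46, SE 0.12, adjusted p = 0.00295), a call lost against isthmus G1 (-0.31, adjusted p = 0.109). With pool as a block it was also called in neck (-0.27, adjusted p = 0.0212) and chief cells (-0.36, adjusted p = 0.0284).

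In the order of mean levels over the 8 groups, S cells led for Ccnd1 and neck cells for Ccnd2. Neighbours that could not be told apart for Ccnd1 were pre-pit, neck, isthmus G1 and mature pit cells (means of 122, 121, 114 and 107 CPM), and those above and below differed. For Ccnd2 no neighbours differed from neck (324 CPM) down to isthmus G1 cells (204 CPM), and isthmus G2M (119 CPM) and parietal cells (76.2 CPM) followed as separate steps. For Ccnd3 no pair of neighbours differed.

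The parietal clusters were not alike in these genes. Of 10 members, 4 were called higher in cluster 8 than in cluster 1 and 0 lower, where 20.3% of 15195 genes were called, 9.32% higher and 11% lower. Ccnd1 was 61.7 and 69.3 CPM in cluster 8 against 15.9 and 20.1 in cluster 1 (1.91, SE 0.12, adjusted p = 1.13e-13), with no overlap. Ccnd2 (0.73, SE 0.16, adjusted p = 0.000865), Cdk4 (0.79, SE 0.13, adjusted p = 2.50e-05) and Cdk6 (0.69, SE 0.22, adjusted p = 0.0192) were higher as well, the last being lost without plate 1 or plate 3 of pool K (adjusted p = 0.0765 and 0.0681). Cdkn1a was 316 and 294 CPM in cluster 8 and 298 and 319 in cluster 1 (0.02, SE 0.27, 95% interval -0.54 to 0.58). Among 24 other G1/S genes, Cks1b (0.71, SE 0.25), Cdkn2d (0.58, SE 0.21) and Cdkn2c (0.37, SE 0.12) led the 4 that were higher, and Rbl2, a relative of the retinoblastoma protein, was the 1 that was lower (-0.45, SE 0.12, adjusted p = 0.00628). No proliferation marker of 7 was called, whereas 9 of 12 dissociation response genes were higher in cluster 8 (median 1.15), whose part was not tested.

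E-type cyclins were below the isthmus mean in most differentiated types. Ccne1 was below 3 CPM in each pool of pre-pit, neck, chief and parietal cells and 6.06 and 1.46 CPM in mature pit cells. It was called lower than the isthmus mean in mature pit (-1.50, SE 0.42), pre-pit (-2.26, SE 0.38), neck (-2.63, SE 0.31) and parietal cells (-2.48, SE 0.31). Chief cells had 3 UMIs of Ccne1 in 180 cells. The arithmetic mean of the 3 phase levels, in which S cells stood at 59.5 CPM, was 22.9 CPM. Its ratio to the chief level was 33.6, with a 95% counting interval of 11.5 to 163. The log2 differences of the other types average the phases on the log2 scale, so this ratio cannot be set beside them. Against isthmus G1 alone Ccne1 was called in no type, with differences of 0.33 in mature pit, -0.43 in pre-pit, -0.80 in neck, -1.97 in chief and -0.65 in parietal cells. Ccne2 likewise fell in pre-pit (-1.73), neck (-1.67), chief (-2.06) and parietal cells (-2.08), and stood at -0.03, 0.03, -0.36 and -0.38 against G1 alone, where mature pit cells were at 0.97 (adjusted p = 0.183), none of them called. Ccne2 helped to call the phases, so that isthmus cells called G1 were partly chosen for low Ccne2. In mature pit cells of pool K, 6 cells called S had 12 of 13 UMIs of Ccne1 and 21 of 26 of Ccne2. In pool T, 6 such cells had 2 of 4 and 6 of 11. Ccne2 in mature pit cells differed from the isthmus mean by -0.73 (adjusted p = 0.120) and was called without plate 5 of pool K (-1.34, adjusted p = 0.00390).

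Cdk4 fell in every differentiated type, with log2 differences of -0.33 (SE 0.09) in pre-pit and -0.51 (SE 0.09) in neck cells and of -1.22 (SE 0.10), -1.17 (SE 0.10) and -1.36 (SE 0.09) in mature pit, chief and parietal cells. Its levels were 235 and 244 CPM in pre-pit, 229 and 210.1 in neck, 131 and 123 in mature pit, 108 and 147 in chief and 118 and 129 in parietal cells. Pre-pit and neck cells lay at the isthmus G1 level of 238 and 227 CPM (0.03, adjusted p = 0.906, and -0.15, adjusted p = 0.311, against G1 alone), and the step down came between pre-pit and mature pit cells (-0.89, SE 0.11, adjusted p = 0.000107) and between neck and chief cells (-0.65, SE 0.11, adjusted p = 0.000242). Cdk6 was 36.3 and 37.9 CPM in neck and 13.1 and 15.1 in parietal cells, the latter a called fall (-1.08, SE 0.17, adjusted p = 2.66e-05), and it was lower in chief than in neck cells (-0.83, SE 0.25, adjusted p = 0.0157). In neck cells its difference of 0.34 was called only with pool as a block (adjusted p = 0.0631 without and 0.0185 with it). Cdk6 was not called in pit cells, where the pools differed, at 26.8 and 17.5 CPM in pre-pit and 30.3 and 15.7 in mature pit cells.

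The 3 inhibitors were highest in different cells. Cdkn1a was 268 and 276 CPM in parietal cells (2.99, SE 0.27, adjusted p = 6.03e-08), with a UMI in 93.7% of 702 cells against 11.1% of 1247 neck cells. At 20000 UMIs per cell, with 23 parietal cells left out, these shares were 87.2% and 10.1%. It was also higher in mature pit cells (2.18, SE 0.33, adjusted p = 7.86e-05), but the pools were far apart, at 61.1 CPM in K and 219.7 in T, both above the 21.0 to 45.4 of isthmus cells. Neck cells were lowest, at 7.46 and 7.60 CPM (-2.16, SE 0.41, adjusted p = 0.000396). In pre-pit (11.6 and 21.5 CPM) and chief cells (11.1 and 18.9 CPM) the differences of -0.95 and -0.99 were called only with pool as a block (-0.95, adjusted p = 0.0224, and -1.01, adjusted p = 0.0396, against 0.128 and 0.164 without it). Of the 9 p53 targets tested, 4 were higher and 3 lower in parietal cells (median 0.40 against -0.07 for all genes), where 35.3% and 38.8% of all genes were. In mature pit cells 2 were higher and 2 lower, where 18.6% and 21.6% of all genes were. The dissociation response list summed to 1663 to 1683 unscaled CPM in mature pit and 2638 to 2727 in parietal cells, below every isthmus phase, and to 5798 in pool K and 14312 in pool T of neck cells, and its part was not tested.

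Cdkn1b was lower than the isthmus mean in mature pit (-0.97, SE 0.11), parietal (-0.76, SE 0.08), chief (-0.66, SE 0.11) and pre-pit cells (-0.65, SE 0.09), with adjusted p between 2.20e-07 and 7.19e-05. In neck cells it was 51.8 and 54.9 CPM and was called only with pool as a block (-0.17, adjusted p = 0.0576 without and 0.0417 with it). It was lowest in mature pit cells, at 30.3 and 27.8 CPM, and all 5 types lay below isthmus G2M cells in each pool. Of these 8 groups, chief and neck cells had the highest Cdkn1c. It measured 655 and 848 CPM in chief cells (6.26, SE 0.17, adjusted p = 1.35e-13), 51.9 and 78.6 in neck cells (2.60, SE 0.19, adjusted p = 2.21e-08) and at most 12 CPM in the other 6 groups, falling in parietal (-1.18, SE 0.29, adjusted p = 0.00152) and mature pit cells (-2.15, SE 0.62, adjusted p = 0.0115). A UMI was present in 78.9% of chief, 48.4% of neck and 7.44% of mature pit cells. Thinning to 20000 UMIs, with 2, 369 and 14 shallower cells left out, gave 73.4%, 44.9% and 4.46%.

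Mature pit and pre-pit cells differed in 2 of 10 members, where 11.7% of all genes were called, 7.56% higher and 4.17% lower. Cdk4 was lower and Cdkn1a higher (3.13, SE 0.49, adjusted p = 0.000561) in mature pit cells. Cdkn1c, at 5.05 and 8.95 CPM in pre-pit and 2.33 and 2.19 in mature pit cells (-1.62), was called only with pool as a block or in DESeq2 (adjusted p = 0.188, and 0.0365 and 0.0355). Chief and neck cells differed in 5, where 40.0% were called, 19.6% higher and 20.4% lower. Cdkn1c was 12.6-fold higher in chief cells (3.65, SE 0.21, adjusted p = 2.52e-09), and Ccnd1 (-3.61, SE 0.19), Cdk4, Cdk6 and Cdkn1b (-0.49, SE 0.12) were lower. The neck cells themselves spanned part of this distance. Cluster 12 had 174 and 307 CPM of Cdkn1c against means of 24.6, 56.3 and 82.3 in neck clusters 2, 0 and 7 (2.31, SE 0.29, adjusted p = 4.13e-07), and 89.6 and 92.5 CPM of Ccnd1 against 131 to 151 (-0.61, SE 0.10, adjusted p = 0.000101). These were 2 of 10 members in a comparison with 7.24% of genes called, 3.33% higher and 3.91% lower. Over neck clusters 2, 0, 7 and 12 and chief cluster 10 the mean of Cdkn1c was 24.6, 56.3, 82.3, 240.4 and 908 CPM, and that of Ccnd1 134, 145, 140.3, 91.0 and 10.4, so that the highest Cdkn1c stood with the lowest Ccnd1. Levels by cluster were scaled apart from those by type, which is why chief cells have 2 values.

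**Figure D3:**
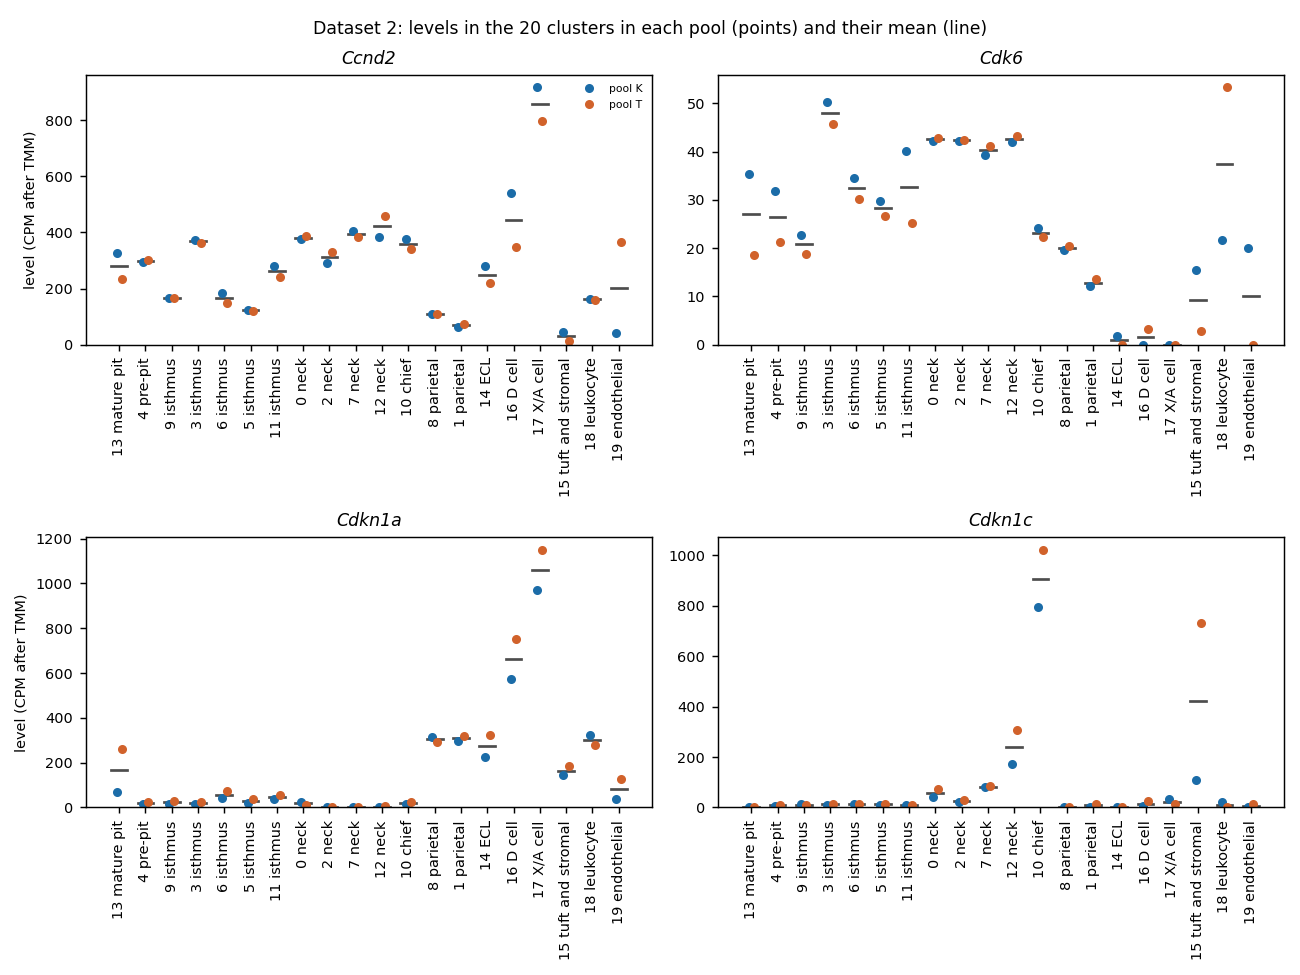
Levels of Ccnd2, Cdk6, Cdkn1a and Cdkn1c (y axis, CPM after TMM scaling) in the 20 clusters of dataset 2, each point being a pool and each line the mean. Endocrine clusters 14, 16 and 17 have high Cdkn1a and almost no Cdk6, and Cdkn1c is high in chief cluster 10 and, in pool T, in cluster 15.

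Endocrine cells had high Cdkn1a and almost no Cdk6, and their Ccnd2 differed by type. Clusters 14 (ECL, enterochromaffin-like cells), 16 (D cells) and 17 (X/A cells) held 53, 31 and 29 cells, all called G1. Against the mean of the 14 other epithelial clusters 6 of 10 members were called, where 53.3% of genes were, 4 higher (22.9% of genes) and 2 lower (30.4%). These 14 include isthmus cluster 11 and isthmus clusters 3, 5, 6 and 9, which held mostly S or G2M cells. No comparison with G1 cells alone was made here, and the part of phase was not tested. Cdkn1a was 224 and 324 CPM in ECL, 575 and 750.1 in D and 970.3 and 1148 in X/A cells (4.39, SE 0.19, adjusted p = 2.01e-20), and every one of these values except that of ECL cells of pool K lay above the 71.3 and 260.8 CPM of mature pit cluster 13. Ccnd2 reached 917 and 795 CPM in X/A cells (0.97 over the 3 clusters, SE 0.09, adjusted p = 4.57e-12), more than in any other cluster, 540.2 and 347 in D cells and 279 and 219.7 in ECL cells, the last below every neck cluster by its mean. Cdk6 was nearly absent, with 2 UMIs in 113 endocrine cells, or 0.826 CPM with a 95% Poisson interval of 0.10 to 2.98, against a mean of 31.4 CPM and a lowest cluster mean of 12.8 in the other epithelium. In X/A cells it had 0 UMIs, at least 6.81-fold lower. Ccnd3 (0.44, SE 0.12) and Cdkn1b (0.54, SE 0.11) were higher and Cdk4 was lower (-0.51, SE 0.09). The median over all genes was -0.23 here, and it moved by 0.26 under RLE size factors and by 0.49 in DESeq2, with these 6 calls and their directions kept under both. Of 24 other G1/S genes 2 were higher, Cdkn2d (1.46, SE 0.22) and Rb1 (1.18, SE 0.16), and 14 lower, among them E2f8, with 2 UMIs in the 113 cells, Cdk2 (-4.89, SE 0.44) and Skp2 (-2.55, SE 0.92). Dissociation response genes were higher for 9 of 12 (median 2.02), which was not tested further.

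The remaining clusters of dataset 2 were small and were not compared. Cluster 15, in which tuft and stromal markers were both highest, had 337 CPM of Cdk4 and 30.4 of Ccnd2, and its Cdkn1c was 111 CPM in pool K and 730.0 in pool T. Leukocyte cluster 18, with 13 cells, had 302 CPM of Cdkn1a and 173 of Cdkn1b, and endothelial cluster 19, with 9 cells, had 141 of Ccnd3.

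More of the other G1/S genes were lower than higher in each differentiated type. Against the isthmus mean, 12 of 24 were lower and 1 higher in mature pit cells, 13 and 0 in pre-pit, 15 and 2 in neck, 12 and 4 in chief and 16 and 6 in parietal cells, and all 7 proliferation markers were lower in all 5 types. Ccna2, the cyclin of S and G2, fell most in each, with differences of -4.16 in mature pit, -3.00 in pre-pit, -4.87 in neck, -3.84 in chief and -4.14 in parietal cells. It was followed by Cdkn2d (-2.17) and Cdkn2c (-2.08) in mature pit, E2f1 (-2.89) and Cdkn2d (-2.30) in pre-pit, E2f8 (-2.98) and E2f2 (-2.82) in neck, E2f3 (-3.53) and E2f1 (-2.82) in chief, and Cks1b (-3.50) and E2f8 (-3.49) in parietal cells. Of those that were higher, Cdkn2b, the INK4 inhibitor of Cdk4 and Cdk6, rose most and reached 287 CPM in parietal cells against 3.92 in isthmus G1 (6.73 over the isthmus mean, SE 0.11, adjusted p = 1.16e-16) and 10.96 CPM in mature pit cells (2.16, SE 0.26, adjusted p = 7.02e-06). By their means, parietal cells had the lowest Ccnd2 and Cdk6 and the highest Cdkn1a of the 8 groups. Their Cdkn1a could not be told apart from that of mature pit cells (0.81, SE 0.37, adjusted p = 0.0749). Nor could their Cdk6 be told apart from that of chief cells, which was higher by 0.58 (SE 0.28, adjusted p = 0.0925). Parietal cells also carried the highest Cdkn2b, together with Rbl2 (1.01, SE 0.09) and Rb1 (0.91, SE 0.10). Rises elsewhere were smaller: Tfdp2 (1.16), Mnat1 (0.81) and Rbl2 (0.68) in chief cells and Rbl2 (0.56) and Tfdp2 (0.23) in neck cells. Between types, Cdkn2b was higher (2.13, SE 0.32) and Mnat1 lower (-0.70, SE 0.16) in mature pit than in pre-pit cells, and of 6 genes higher and 5 lower in chief than in neck cells the first were E2f2 (2.71), E2f8 (1.51) and Cks1b (1.14) and E2f3 (-2.77), Cdk2 (-1.09) and Cdkn2d (-1.04). In cluster 12 against the other neck clusters, 0 were higher and 2 lower, E2f3 (-1.49, SE 0.41) and Tfdp1 (-0.48, SE 0.15).

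Dataset 1 allowed comparisons of the same types, apart from chief cells, in fewer cells and other mice, but with another comparator. This was cluster 4-15, with 19 S, 34 G2M and 0 G1 cells, in which all 5 isthmus markers were highest. A comparison with isthmus G1 cells, as in dataset 2, could therefore not be made. Neck cells held 14 S and 1 G2M cells of 45, and the part of phase in the differences of dataset 1 was not tested. Dataset 1 pooled corpus and antrum units, and the labels used here do not give the region of its isthmus-like or neck cells. Its cluster 10, in which 3 of 4 chief markers were highest, held 21 cells and was not compared. The members called were 8 of 10 in corpus mature pit cells, 5 in corpus pre-pit, 6 in neck and 9 in parietal cells, where 43.0%, 20.4%, 29.3% and 60.3% of 10229 genes were called. By direction, 1 was higher and 7 lower in mature pit (20.6% and 22.3% of genes), 1 and 4 in pre-pit (9.60% and 10.8%), 3 and 3 in neck (13.1% and 16.2%) and 1 and 8 in parietal cells (28.3% and 32.0%). Cdkn1a was again high in parietal cells (267 and 402 CPM in tube1 and tube2, 3.61, SE 0.36, adjusted p = 7.59e-08) and in corpus mature pit cells (522 and 210.1 CPM, 3.76, SE 0.37, adjusted p = 2.53e-07), against 34.9 and 22.1 in the isthmus-like cells. In mature pit cells it was the single member that was higher. Ccne1 had 0 UMIs in 26 corpus mature pit cells, at least 12.3-fold lower than in isthmus-like cells, and Cdkn1c had 0, at least 3.37-fold lower (adjusted p = 0.0383, and 0.0729, 0.0743 and 0.0781 without plate 3 of tube1, plate 2 of tube2 and plate 3 of tube2). Ccne2 had 2 UMIs there, a ratio of isthmus-like to mature pit levels of 22.5 (95% counting interval 6.23 to 186). Cdk4 fell by 2.53 (SE 0.21) in mature pit, 0.81 (SE 0.17) in pre-pit and 1.58 (SE 0.18) in parietal cells and differed by -0.37 (SE 0.17, adjusted p = 0.117) in neck cells. In neck cells Ccnd2 (601 and 478 CPM against 246 and 234, 1.21, SE 0.26, adjusted p = 0.00174), Cdk6 (65.4 and 47.0 against 29.1 and 25.7, 1.06, SE 0.27, adjusted p = 0.00602) and Cdkn1c (89.0 and 44.2 against 5.82 and 7.71, 3.27, SE 0.53, adjusted p = 0.000175) were higher. The lower ones were Ccnd3 (-0.55, SE 0.19, adjusted p = 0.0377), Ccne1 (-1.35, SE 0.45, adjusted p = 0.0319) and Cdkn1a, at 0 and 3.69 CPM (-3.56, SE 0.93, adjusted p = 0.00696). Ccnd3 lost its call without any single plate except plate 1 of tube2 (adjusted p of 0.0591 to 0.151), Ccne1 without plate 1 or 3 of tube1 or plate 1 or 2 of tube2 (0.0508 to 0.185), and Cdkn1a without plate 1 of tube2 (0.0533). Of 12 dissociation response genes 9 were higher in these neck cells (7519 and 9070.5 unscaled CPM against 2955 and 4475), whose part was not tested. Ccnd1 in neck cells (0.49) had an adjusted p of 0.0519, and of 0.0280 with pool as a block.

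**Figure D4:**
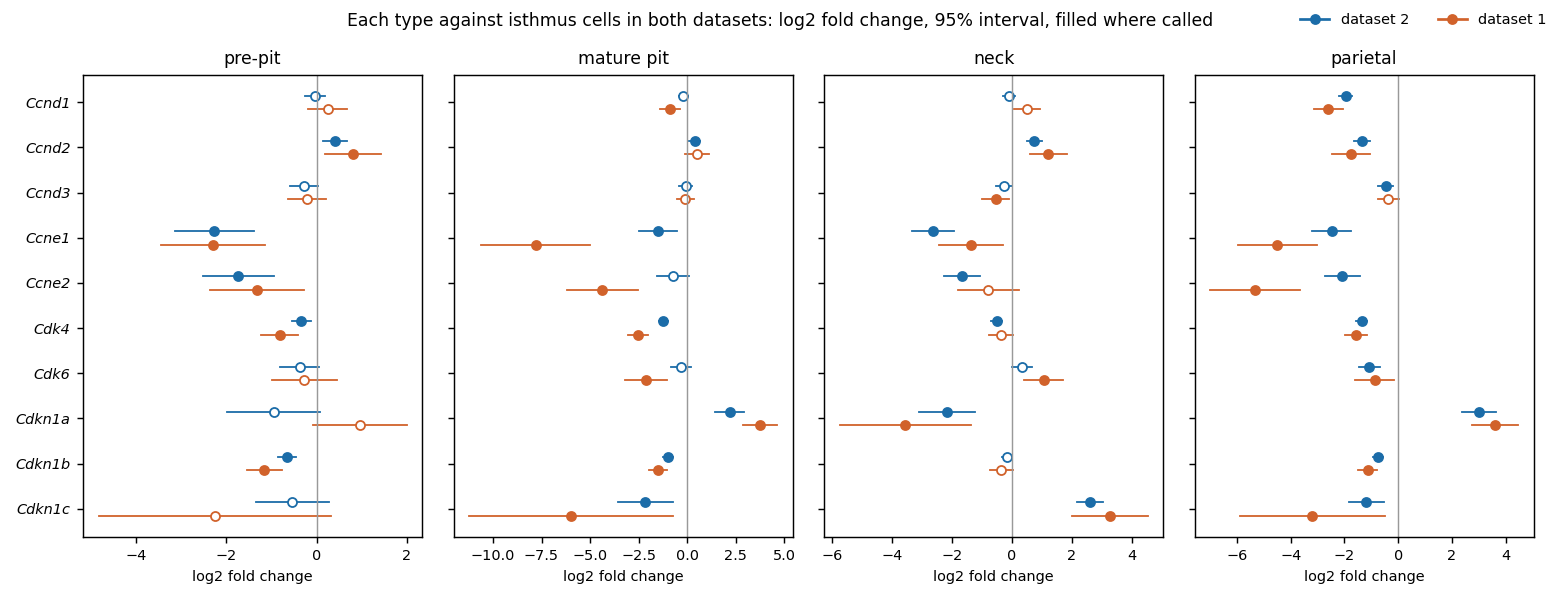
Log2 fold change of each member (x axis) between a differentiated type and isthmus cells in dataset 2 (blue, mean of 3 phases) and dataset 1 (orange, isthmus-like cluster), with 95% interval and filled points where called. The isthmus-like cluster held S and G2M cells but no G1 cells, so the comparators are unlike. Cdkn1a lies above 0 in mature pit and parietal cells and Cdkn1c in neck cells of both datasets, and the points of Ccne1 and Cdkn1c in mature pit cells of dataset 1, with 0 UMIs, depend on a prior count and are no bounds.

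In parietal cells of dataset 1 Ccnd1 (20.5 and 24.5 CPM against 129 and 155, -2.60, SE 0.23), Ccnd2 (-1.76, SE 0.30), Cdk6 (-0.87, SE 0.31) and Cdkn1b (-1.14, SE 0.16) fell. Ccne1, Ccne2 and Cdkn1c rested on 3, 2 and 2 UMIs there, with ratios of isthmus-like to parietal levels of 25.6 (95% counting interval 8.76 to 124), 46.7 (12.9 to 386) and 10.5 (2.91 to 86.7). Ccnd3 was not called (-0.36, adjusted p = 0.0709) unless mitochondrial genes were left out (-0.41, adjusted p = 0.0445). Corpus pre-pit cells had higher Ccnd2 (0.81, SE 0.26) and lower Ccne1 (-2.29, SE 0.49), Ccne2 (-1.32, SE 0.44) and Cdkn1b (-1.15, SE 0.17), and corpus mature pit cells had lower Ccnd1 (-0.86, SE 0.22), Cdk6 (-2.11, SE 0.46) and Cdkn1b (-1.51, SE 0.19). Of 46 corpus pre-pit cells 9 were called S and 4 G2M, and of 26 corpus mature pit cells 1 and 1. The part of phase in the differences between them was not tested. From pre-pit to mature pit cells of the corpus Cdkn1a rose by 2.80 (SE 0.36, adjusted p = 7.20e-05) and 5 members fell, where 12.9% of genes were called, 7.08% higher and 5.86% lower. They were Ccnd1 (-1.11, SE 0.22), Cdk4 (-1.72, SE 0.23), Cdk6 (-1.84, SE 0.49), Ccne2, with 2 UMIs in mature pit cells (a ratio of 9.08, 95% counting interval 2.51 to 75.0), and Ccne1, at least 2.37-fold lower, whose call ended with pool as a block (adjusted p = 0.0487 without and 0.0555 with it). Without plate 1 or 2 of tube1 or plate 1 of tube2, Ccnd2 in pre-pit cells was not called (adjusted p of 0.105, 0.0858 and 0.0969), nor was Ccne2 there without plate 1 of tube1 or plate 2 or 3 of tube2 (0.114, 0.120 and 0.0840). Cdk6 in parietal cells was lost without plate 1 or 3 of tube1 or plate 3 of tube2 (0.0625, 0.0634 and 0.115). Between mature pit and pre-pit cells, Ccne1 was lost without any 1 of the 6 plates (0.0504 to 0.115), Ccne2 without plate 1 or 3 of tube1 or plate 1 or 2 of tube2 (0.0622 to 0.195), and Cdk6 without plate 3 of tube1 or of tube2 (0.195 and 0.0803).

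Antrum units were present in dataset 1 alone, and the study names its clusters 1 and 6 antrum mature pit and antrum pre-pit cells. Other clusters may hold antrum cells too, such as cluster 9, led by Chga and Gast. The genes leading cluster 6 by fold were Zg16, Muc2, Tff3, Fcgbp and Clca1, known from intestinal goblet cells, with no pit marker among its first 10, although the pit markers Gkn2, Gkn1, Muc5ac and Tff1 measured 30761, 22114, 4243 and 42604 CPM there. The clusters are therefore compared by number. Of 32 cells in cluster 6, 1 was called S and 9 G2M, whereas all 49 cells of cluster 1 were called G1. The part of phase in the differences between them was not tested. Cluster 1 differed from cluster 6 in 4 of 10 members, where 14.0% of genes were called, 8.29% higher and 5.66% lower. Cdkn1a was 478 and 303 CPM against 77.2 and 73.6 (2.34, SE 0.36, adjusted p = 0.000296) and Ccnd3 66.3 and 63.5 against 33.4 and 25.2 (1.08, SE 0.24, adjusted p = 0.00546), whereas Ccnd2 (-1.16, SE 0.28, adjusted p = 0.00993) and Cdk4 (-1.31, SE 0.25, adjusted p = 0.00191) were lower. The Ccnd2 call was lost without plate 1 of tube1 (adjusted p = 0.160). In the corpus of both datasets, Cdkn1a was higher and Cdk4 lower in mature pit than in pre-pit cells. Between corpus clusters 8 and 2 and antrum clusters 1 and 6, a contrast that includes the goblet genes of cluster 6, 4 of 10 members were called, where 9.24% of genes were, 3.75% higher and 5.48% lower. Ccnd2 (0.66, SE 0.20), Ccnd3 (0.54, SE 0.16) and Cdk4 (0.75, SE 0.17) were higher in the corpus and Cdkn1b lower (-0.66, SE 0.15). Ccnd2 was lost without plate 1 or 2 of either tube (adjusted p of 0.0585 to 0.125), Ccnd3 without plate 1 of tube1 or any plate of tube2 (0.0762 to 0.127), and Cdkn1b without plate 3 of tube1 (0.138).

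Of the other G1/S genes, 23 were tested in dataset 1, and more were lower than higher against isthmus-like cells. In corpus mature pit cells 14 were lower and 1 higher (22.3% and 20.6% of all genes) and in pre-pit cells 10 and 0 (10.8% and 9.60%). The numbers were 13 and 0 in neck (16.2% and 13.1%) and 14 and 5 in parietal cells (32.0% and 28.3%). Ccna2 was 335 CPM in isthmus-like cells and 0.641, 9.62, 6.23 and 0.722 CPM in these types, resting on 1 UMI in mature pit and 3 in parietal cells. It was among the 10 genes leading the isthmus-like cluster, which was named from markers of dividing cells, so its fall is description only. Cdkn2b was again high in parietal cells, at 342 CPM against 2.90 (6.88, SE 0.26, adjusted p = 8.08e-13), with Tfdp2 (1.32, SE 0.16) and Rbl2 (1.26, SE 0.25), and higher in corpus mature pit cells (2.55, SE 0.50). E2f8 and Cdkn2c led the other falls in mature pit, Cdkn2d and Cdkn2c in pre-pit, and E2f1 and E2f8 in parietal cells. In neck cells Cdkn2b had 0 UMIs in 45 cells, at least 1.74-fold lower, and E2f8 fell by 2.47 (SE 0.43). Few of them differed between these clusters: Tfdp1 (-0.82, SE 0.26) fell from corpus pre-pit to mature pit cells, Fbxw7 (1.00, SE 0.30) was higher and Ccna2 and Cks1b (-1.32, SE 0.42) were lower in antrum cluster 1 than in cluster 6, and Tfdp2 was higher (0.84, SE 0.21) and Cdkn2b lower (-1.23, SE 0.28) in corpus clusters 8 and 2 than in antrum clusters 1 and 6.

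Whether the datasets differed was tested as the difference between their contrasts against isthmus cells of all phases. Cdk4 in mature pit cells was the single call among the members, its fall being smaller in dataset 2 by 1.25 (SE 0.18, adjusted p = 0.00172), where 3.35% of 12132 genes were called. None of the 10 was called in edgeR for pre-pit (0% of genes), neck (0.157%) or parietal cells (0.569%), with 3, 3 and 1 members at an unadjusted p under 0.05 and 0, 1 and 0 called by DESeq2. The 1 gene DESeq2 called in neck cells was Ccne1 (-2.46, adjusted p = 0.0145, against -2.43 and 0.139 in edgeR). Of neck cells, 31.1% were called S in dataset 1 and 3.77% in dataset 2, and the part of phase was not tested. Intervals were wide, for example -3.01 to 0.10 for Cdkn1a in mature pit cells, whose pools lay far apart in both datasets, so a difference is not shown to be absent there.

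The genes most like each member over the 38 sums of 19 clusters and 2 pools were found among 9633 genes with a mean of at least 10 CPM, by Pearson correlation of log2 CPM. The points share libraries and cell types, and the values are descriptive. Ccne2 went with Hells (r = 0.834), Rpa1 (0.796) and Topbp1 (0.767), which act in DNA replication and repair, whereas Ccne1, with a mean of 7.58 CPM, fell under the minimum. Cdkn1c went with Fxyd6 (0.83), Gper1 (0.785) and Cblif (0.769), the gene of gastric intrinsic factor, and Cdkn1a with Coq10b (0.91), Rb1 (0.875) and Tiparp (0.875). Ccnd1 was closest to Spred2 (0.771), Spred1 (0.755) and Tent5a (0.741), of which the Spred genes encode inhibitors of Ras signalling. Ccnd2 was closest to Zfp467 (0.855), Clstn2 (0.789) and 6430548M08Rik (0.787), and Ccnd3 to Tnfrsf12a (0.69), Srsf7 (0.665) and Fos (0.658). Cdk4 went with Sf3b3 (0.876), Gas5 (0.842) and Haus1 (0.831), Cdk6 with Rplp1 (0.924), Slc25a10 (0.893) and Hes1 (0.89), and Cdkn1b with Srgap2 (0.856), Sun2 (0.806) and Cyrib (0.78).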

How the data were processed

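The authors made the deposited UMI counts from Quartz-Seq2 reads of 18 plates with bcl2fastq 2.20.0.422, FASTX-Toolkit, Drop-seq tools and STAR on GRCm39 with Gencode M27, and kept cells with at least 2500 detected genes. Whether counting used strand is not given in the sources used here. The deposited cell tables held totals per cell, the mitochondrial percentage, the scores by which Seurat called phases, and the clusters of the authors. The authors' cluster names were used, and an unnamed cluster of dataset 1 was called isthmus-like from its markers. No doublet caller was run here and none is stated in the methods, so doublets may remain. Of 296 barcodes in dataset 1, 145 occurred on more than 1 plate, and all 384 in dataset 2 did, without a repeated cell name.

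UMIs were summed by group and pool and fitted with edgeR 4.0.16 (TMM, filterByExpr, quasi-likelihood, limma 3.58.1, R 4.3.3), with Benjamini-Hochberg adjustment over all genes of a fit. The scripts were tested on simulated data. Alternatives were DESeq2 1.42.0, RLE size factors, no filter on low counts, cells with at least 4000 genes, mitochondrial genes left out, isthmus G1 cells alone as comparator, only G1 cells in the differentiated types, plates as units, pool as a replicate block, and each plate or pool left out. Groups of a pool came from the same mice, so pools pair the sums. Deviations of paired sums correlated at a median r of 0.126 (0.0333 to 0.385, 28 pairs) in dataset 2 and 0.0245 (-0.0287 to 0.0533, 21 pairs) in dataset 1. Counting and Poisson intervals and floors (3 UMIs) cover counting error only. The SE of a log2 difference was computed from the F statistic of the fit, and the intervals of log2 differences are based on it.

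The members and gene lists were chosen with earlier results of these data known. By the rule for named genes, all 10 members are reported in each comparison, by value or within a count of those called. From the G1/S list, up to 3 called genes per direction are named in each comparison, taken by size of change, and for each member the 3 genes of highest correlation.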

Additional observations from a re-analysis of the deposited data

Results flagged for a closer look

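Ccnd3 in isthmus cells of dataset 2 was lowest on plate 6 of pool T, at 85.4 CPM without TMM scaling against a median of 101.5 and a highest value of 105 over the 6 plates. The gap to the nearest plate was 0.674 of the whole range, above Dixon's critical value of 0.625. This was 1 of 20 groups of plates examined, and chance gives about 1 in 20.

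The fall of Cdk4 from isthmus to mature pit cells was smaller in dataset 2 than in dataset 1, by 1.25 on the log2 scale (SE 0.18, adjusted p = 0.00172, edgeR's test of the difference itself). The datasets differed in mice and sort, and antrum units were in dataset 1 alone. In dataset 1 the comparator also held no G1 cells, so these cannot be told apart.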

How the results depend on the processing

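Values are numbers of the 10 members called, or of 9 without Ccne2 for the phases. With isthmus G1 cells alone as comparator, pre-pit cells had 1 in place of 5 and neck cells 3 in place of 6, and 3 differences changed sign, to 0.33 for Ccne1 in mature pit, 0.03 for Cdk4 in pre-pit and 0.03 for Ccne2 in neck cells. Of 34 called differences 20 were kept under this comparator. With no filter on low counts the number was 7 in place of 4 for S against G1 and 9 in place of 5 in pre-pit cells. For the difference between datasets it was 3 in place of 1 in mature pit, 2 in place of 0 in pre-pit and 2 in place of 0 in neck cells. DESeq2 gave 2 in place of 5 in pre-pit, 3 in place of 6 in neck, 3 in place of 6 for mature pit against pre-pit and 2 in place of 4 for corpus clusters 8 and 2 against antrum clusters 1 and 6 of dataset 1, and for the difference between datasets 2 in place of 1 in mature pit and 1 in place of 0 in neck cells. With plates as units, which are not independent within a pool, there were 8 in place of 5 in pre-pit cells and 5 in place of 2 for cluster 9 against 5 in dataset 2, 5 in place of 8 in mature pit and 2 in place of 5 in pre-pit cells of dataset 1, and differences of 2 in place of 1, 1 in place of 0 and 2 in place of 0 in mature pit, pre-pit and neck cells. The cause was not tested.

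With 1 pool or plate left out, the numbers ranged from 3 to 5 for S against G1, 2 to 5 for G2M against G1, 4 to 7 for S against G2M, 2 to 5 in pre-pit cells, 1 to 3 for cluster 9 against 5, 1 to 2 for cluster 12 against other neck clusters and 2 to 4 for parietal cluster 8 against 1. In dataset 1 they ranged from 6 to 8 in mature pit, 1 to 5 in pre-pit and 2 to 6 in neck cells, 1 to 5 for mature pit against pre-pit, 0 to 4 for antrum cluster 1 against 6 and 0 to 3 for corpus against antrum clusters. The difference between datasets ranged from 1 to 2 in mature pit cells. The lowest numbers mostly came with a pool left out, where a group has 1 sum assumed to vary like the others. Leaving out plates kept 1058 of 1110 values, and pools 153 of 228. Pool as a replicate block kept 112 of 113 calls and added 11, and changed no other call. RLE size factors kept 112 of 113, and cells with at least 4000 genes 112 of 113. With 2 pools behind each value, and fewer than 60 cells in each type of dataset 1, depth limits Ccne1, Ccne2 and Cdkn1c most.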
